A study of Homo sapiens with 2 samples.

Results

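Cyclic AMP is degraded inside cells by phosphodiesterases and acts largely through protein kinase A (PKA). The set described here holds 9 genes of this system: 6 phosphodiesterase genes (PDE4A, PDE4B, PDE4D, PDE3B, PDE7A and PDE8A), the PKA catalytic subunit gene PRKACB, the PKA regulatory subunit gene PRKAR1A, and CREM, which encodes cyclic AMP-responsive transcription factors. Its members were the probe sets that the array annotation assigns to exactly 1 symbol, where that symbol is 1 of the 9 genes. This gave 40 probe sets, out of 41091 with 1 symbol that represent 19775 genes. The 9 genes were chosen by their pathway with the ratios between these same arrays already known, so all values below are a description without a test. RNA came from the human multiple myeloma cell line MM.1S, either cultured together with plasmacytoid dendritic cells (pDCs) or cultured alone. Each group had 1 Affymetrix HG-U133 Plus 2.0 array (n = 1 per group), so no value has a replicate error, and precision is limited by there being only 2 arrays. The labels give no drug treatment, culture time or pDC donor, nor do they say if pDCs were removed before the RNA was extracted.

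Hormones, prostaglandins and other signals that act on Gs-coupled receptors switch on adenylyl cyclases, which make cyclic AMP. The messenger frees the catalytic subunits of PKA from their regulatory subunits, and PKA then phosphorylates CREB and CREM in the nucleus. Phosphodiesterases end the signal, and in lymphoid cells the PDE4 enzymes, the targets of rolipram and roflumilast, carry much of this activity. Transcription of some PDE4 forms and of ICER, a short repressor made from an internal CREM promoter, is itself induced by cyclic AMP, which closes a feedback loop.

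The cyclic AMP response element (CRE), to which CREB and CREM bind, has the palindromic letters TGACGTCA. The 250 bases before each annotated start were searched for it and for its core TGACG on either strand, using RefSeq promoters of build GRCh38.p14. Start sites were given there for 7 of the 9 genes, with 39 windows in all, and PDE3B and PDE7A had no entry. The full CRE was in 2 of the 39 windows, 1 of CREM and 1 of PRKAR1A, and in 1.65% of all 35116 promoter windows. The core, which every full CRE also holds, was in 7 of the 39 windows, from 5 genes, and in 21.2% of all windows. A match is a description of letters and not a measured binding site. The windows below show the full CRE of both genes and the core in 3 others, with the matched letters in capitals. None of the 6 PDE4B windows held the full element or the core, so no PDE4B sequence is shown.
CREM, chr10:35195841-35195870, plus strand: gagctgcacatTGACGTCAgctccgagtca
PRKAR1A, chr17:68512370-68512399, plus strand: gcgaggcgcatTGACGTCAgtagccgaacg
PDE4A, chr19:10416674-10416772, plus strand: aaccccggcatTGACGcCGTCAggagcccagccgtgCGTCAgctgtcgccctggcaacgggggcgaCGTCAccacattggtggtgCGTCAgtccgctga
PRKACB, chr1:84077938-84077964, plus strand: ccgggcctgcgCGTCActtccggcgcg
PDE4D, chr5:59587667-59587693, minus strand: gagggccccctTGACGccagcacatcc
The CREM element begins 50 bases before an internal start site at position 35195902, far inside the gene, which spans 35126846 to 35212958. The PRKAR1A element begins 49 bases before the start at 68512430, and both elements lie downstream of other annotated starts of their genes. The PDE4A window lies directly before the first base of the gene and holds 5 copies of the core, counted over both strands, the largest number among the member windows.

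Low values were held at a floor, set at the array's own median signal of 115.9 with pDCs and 124.0 alone. Lower signals were set to it before the log2 ratio, with pDCs minus alone, was taken. Where 1 of the signals was under the floor the ratio is a bound, and no ratio was taken where both signals were under it. Of the 40 member probe sets, 21 were above the floor on both arrays, 3 only with pDCs, 1 only in MM.1S alone, and 15 on neither. Those 15, with signals from 5.70 to 122.8, comprised 5 of PDE4D, 4 of PDE4A, 3 of CREM and 1 each of PDE7A, PDE8A and PRKAR1A. All 9 genes had at least 1 probe set above the floor on both arrays. "Higher" and "lower" describe these arrays only, and fewer cells of a type cannot be told apart from less RNA per cell in bulk RNA.

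**Figure D1:**
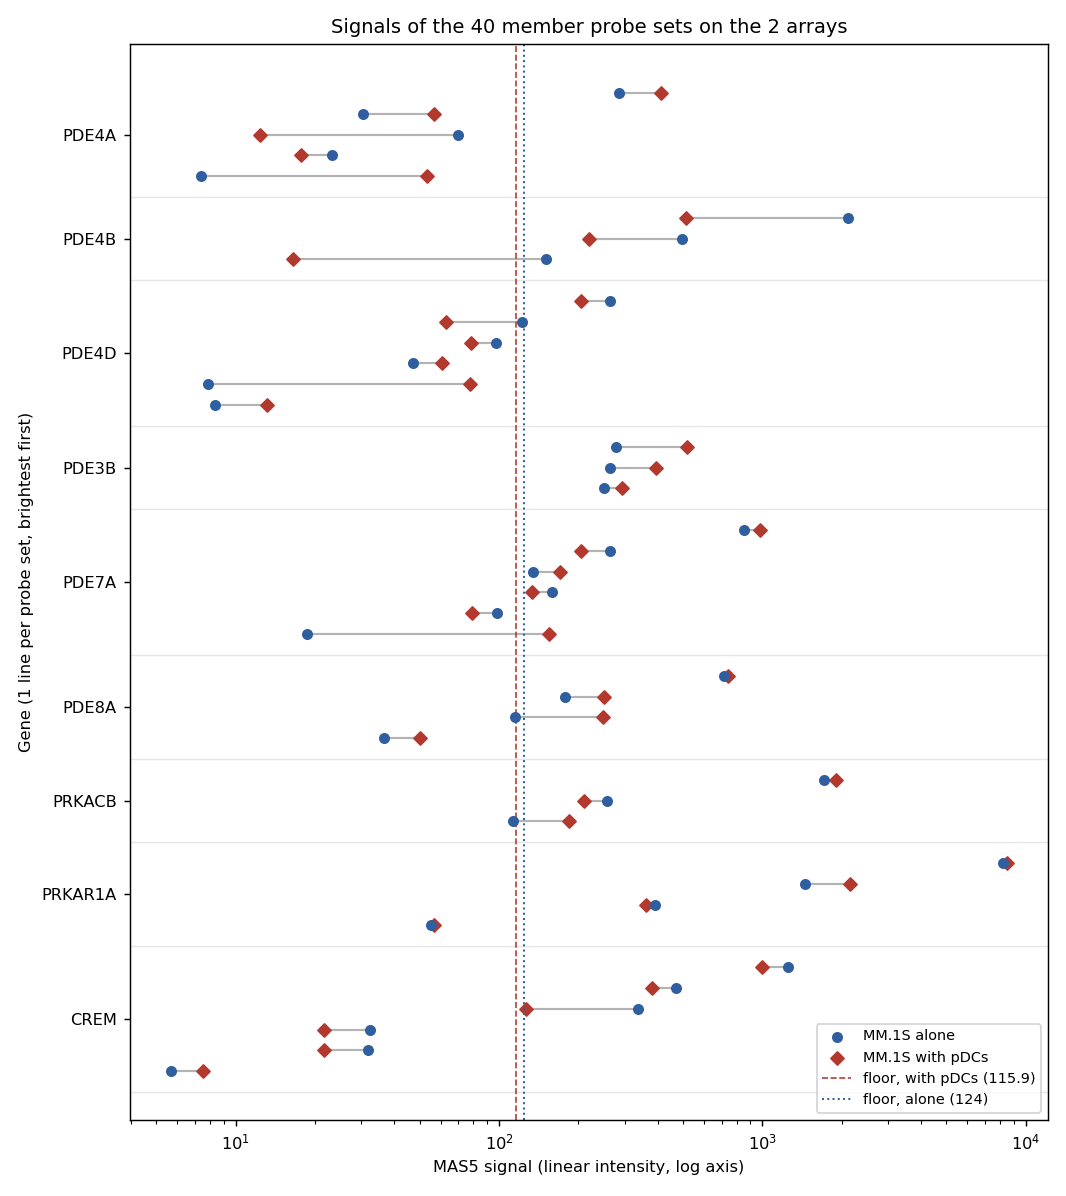
MAS5 signal (log axis) of each of the 40 member probe sets, with 1 line per probe set and the brightest first within each gene; circles are MM.1S alone, diamonds are MM.1S with pDCs, and vertical lines are the floors at 115.9 with pDCs and 124.0 alone. All 3 PDE4B lines run to lower signals with pDCs, all 3 PDE3B lines run to higher ones, and most PDE4A and PDE4D probe sets lie left of the floors.

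PDE4B was the member that differed most and the only one past 2-fold on its brightest probe set. It was lower with pDCs, while its relative PDE4A was somewhat higher, PDE4D was somewhat lower and PDE3B was higher. The PKA subunit genes PRKACB and PRKAR1A had log2 ratios of 0.15 and 0.04, and CREM was lower on all of its measurable probe sets. The brightest CREM ratio, -0.32, was smaller in size than that of PDE4D, -0.37. Over the brightest probe set of each gene, 6 members had a positive log2 ratio and 3 a negative one, with a median of 0.05 against -0.04 over all 14408 genes with a ratio. Of the 9 genes, 0 were at least 2-fold higher, where the share among all genes was 3.16%, and 1 was at least 2-fold lower, where that share was 4.51%. Among the 25 member probe sets with a ratio or bound, 1 was at least 2-fold higher and 3 were at least 2-fold lower, beside 4.19% and 4.67% of all 25795 probe sets with 1 symbol. Of the 21 above both floors, 11 were positive and 10 negative.

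PDE4B encodes the PDE4 enzyme best known from leukocytes and inflammatory signalling. Its brightest probe set, 203708_at, had a signal of 514 with pDCs and 2110 alone, a 4.10-fold lower level (log2 ratio -2.04). The next, 211302_s_at, had 219 and 495 (log2 ratio -1.18), 2.26-fold lower. The last, 215671_at, had 16.5 with pDCs, below the floor, and 151 alone, which bounds its log2 ratio at -0.38 or lower. All 3 probe sets of PDE4B thus had the smaller signal on the co-culture array, by different amounts. Among the 14408 genes, 22 including PDE4B had a ratio as low as its brightest probe set, or 0.153% of them. The gene lies on chromosome 1 from 65792510 to 66374579 and has several start sites, and the array does not say which transcripts the difference came from.

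PDE4A encodes another PDE4 enzyme, expressed in many tissues. Its only probe set above the floor had 411.5 with pDCs and 286.7 alone, 1.44-fold higher (log2 ratio 0.52). PDE4D is a large gene on chromosome 5, from 58969038 to 60522128, whose many forms differ at the amino terminus. Its only measurable probe set had 204 with pDCs and 264 alone, 1.29-fold lower (log2 ratio -0.37). For PDE4A and PDE4D each value therefore rests on 1 probe set. The next brightest PDE4D probe set, at 62.9 against 122.8, was just under the floor alone and has no ratio.

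PDE3B, an enzyme that cyclic GMP inhibits and that insulin signalling activates in fat cells, was the member with the largest positive ratio on its brightest probe set. That probe set, 214582_at, had 517 with pDCs and 278 alone, 1.86-fold higher (log2 ratio 0.90). The next had 394 and 263.5 (log2 ratio 0.58), and the last had 293 and 249.9 (log2 ratio 0.23). All 3 were above both floors and had the larger signal with pDCs, and none reached 2-fold. Of the 14408 genes, 627 (4.35%) had a ratio at least as high as the brightest one.

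PDE7A and PDE8A encode enzymes with high affinity for cyclic AMP that rolipram does not block. The brightest PDE7A probe set had 976 with pDCs and 854.5 alone (log2 ratio 0.19). Of the 3 others above both floors, 1 was positive (170 and 135, log2 ratio 0.33), while the other two were negative at -0.37 and -0.26. A further one had 154 with pDCs but only 18.6 alone, below the floor, which bounds its log2 ratio at 0.31 or higher. The probe sets of PDE7A did not share a direction. For PDE8A the brightest probe set had 738 with pDCs and 713 alone (log2 ratio 0.05), and the next had 249.9 and 178 (log2 ratio 0.49). Another PDE8A probe set, 1552931_a_at, had 248 with pDCs and 115 alone, below the floor there, and was at least 2.00-fold higher. That bound sits at the threshold itself, and its size depends on the floor.

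PRKACB encodes a catalytic subunit of PKA. Its brightest probe set had 1897 with pDCs and 1715 alone (log2 ratio 0.15), while another had 211 and 256 (log2 ratio -0.28). The last, with 185 against 113, was below the floor alone and bounds the log2 ratio at 0.58 or higher. PRKAR1A encodes the type I regulatory subunit whose loss causes Carney complex. Its brightest probe set had 8464 with pDCs and 8210 alone, a log2 ratio of 0.04. The other two above both floors had 2155 and 1455 (log2 ratio 0.57) and 360 and 391 (log2 ratio -0.12). Both subunit genes were thus measured with small ratios on the brightest probe set and mixed signs on the rest.

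CREM is the member at the end of the pathway, and makes activators as well as the repressor ICER. Its brightest probe set, 228092_at, had 998 with pDCs and 1250 alone (log2 ratio -0.32), and 207630_s_at had 379 and 468 (log2 ratio -0.30). The dimmest of the 3 above both floors, 209967_s_at, had 127.0 with pDCs and 336.5 alone, 2.65-fold lower (log2 ratio -1.41). All 3 were lower with pDCs, but 1 by far more than the others, and its co-culture signal lay close to the floor. A ratio at or below that of the brightest CREM probe set was found in 29.4% of the 14408 genes. The 3 remaining CREM probe sets were below the floor on both arrays. Which CREM forms each probe set detects was not analysed here, so the larger difference is not assigned to ICER or to any other form.

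**Figure D2:**
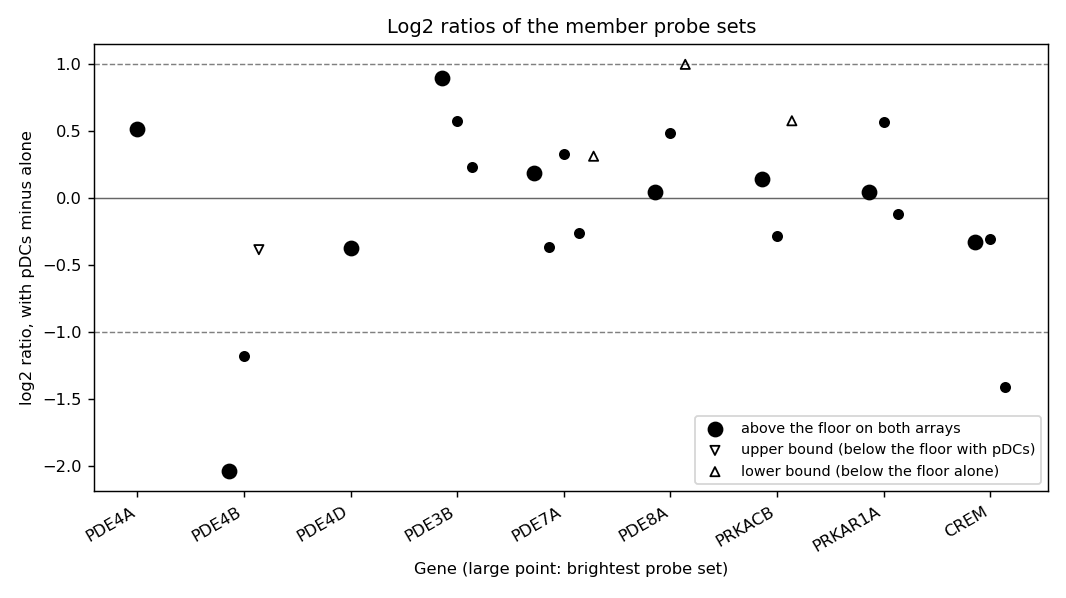
Log2 ratio (with pDCs minus alone) of the 25 member probe sets above the floor on at least 1 array, by gene; large points are the brightest probe set, small filled points are other probe sets above both floors, and open triangles are bounds. Dashed lines mark 2-fold; PDE4B reaches -2.04 and -1.18 and 1 CREM probe set -1.41, while the other genes lie between -0.37 and the PDE8A bound on the upper 2-fold line.

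Probe sets of the same gene share the 2 arrays and are not replicates, and their spread describes only how far the readings of a gene differ. For the 7 members that had 2 or more probe sets above both floors, the SD of the log2 ratio ran from 0.30 (PRKACB) to 0.63 (CREM). Over all 4844 genes with at least 2 such probe sets the median of this SD was 0.34 and its 90th percentile 0.76. Probe sets of both signs occurred in 3 of the 7 members (PDE7A, PRKACB and PRKAR1A) and in 51.0% of the 4844 genes. The mean log2 ratio was -1.61 ± 0.61 for PDE4B (SD, n = 2 probe sets), 0.57 ± 0.33 for PDE3B (n = 3 probe sets) and -0.68 ± 0.63 for CREM (n = 3 probe sets). It was 0.27 ± 0.31 for PDE8A (n = 2 probe sets), 0.16 ± 0.36 for PRKAR1A (n = 3 probe sets), -0.03 ± 0.34 for PDE7A (n = 4 probe sets) and -0.07 ± 0.30 for PRKACB (n = 2 probe sets).

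**Figure D3:**
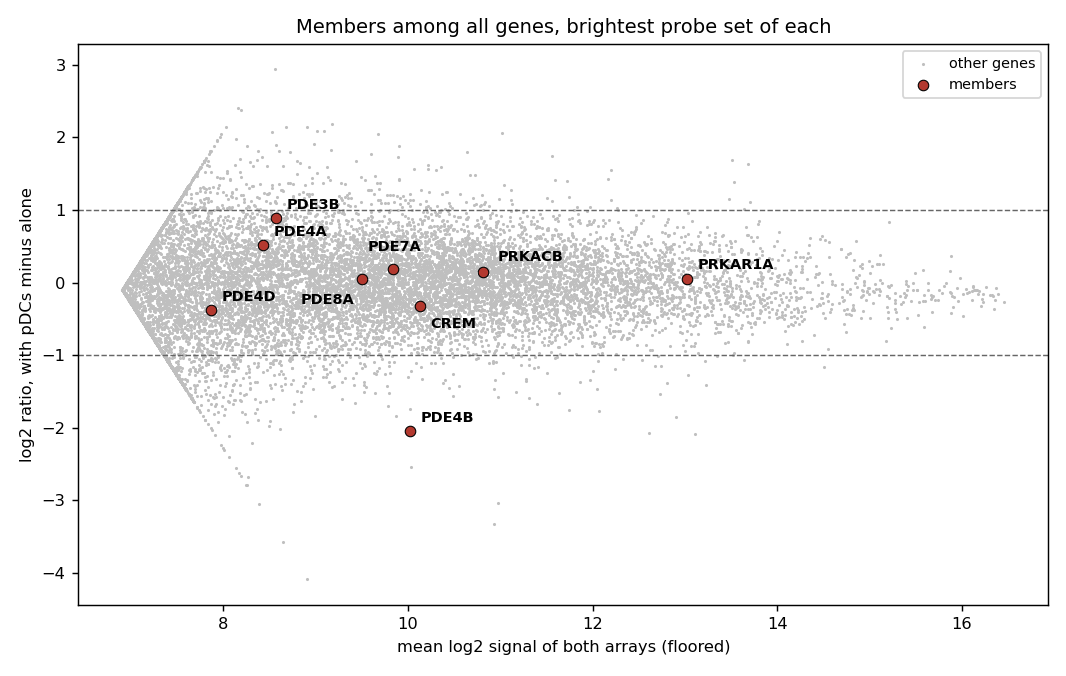
Log2 ratio (with pDCs minus alone) against the mean log2 signal of both arrays for the brightest probe set of 14408 genes (grey) with the 9 members labelled; signals below the floor were set to it, which gives the straight left edges. Dashed lines mark 2-fold; PDE4B at -2.04 is the only member outside them, and PDE3B at 0.90 is the highest.

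Several measures of the arrays moved with these values. The ratio of 3' to 5' signal was 8.09 with pDCs and 19.5 alone for ACTB, and 2.46 and 3.07 for GAPDH, so the upstream probes of these controls were relatively brighter on the co-culture array. The 8 plasma cell markers were above both floors and summed to 135400 with pDCs and 155900 alone, with log2 ratios from -0.67 (MZB1 and CD38) to 0.46 (TNFRSF17). Of 12 pDC markers, 7 were above the floor on at least 1 array, with a summed signal of 2520 with pDCs and 3108 alone, and the defining markers CLEC4C and IL3RA were below it on both. LILRA4 had 306.5 with pDCs and 255.7 alone, and TLR7 was above the floor only with pDCs (213 and 96.2), while GZMB was 3.47-fold lower and TLR9 at least 2.24-fold lower. Monocyte markers were above it on at least 1 array for 6 of 6 measured genes, on both arrays for 1 of them, and summed to 415 with pDCs and 1368 alone. Most of that difference was LYZ (17.0 and 711). S100A8 (116.4 and 182.4), S100A9 (11.25 and 149.2) and CD14 (26.92 and 139.1) also had the smaller signal with pDCs. CSF1R had 120.9 and 123.1, and FCN1 was above the floor only with pDCs (122.6 and 62.6). T cell markers summed to 5036 and 3863, nearly all of it from CD28. CD3G was above both floors (150.4 with pDCs and 124.3 alone), while CD3D, CD3E and CD2 were below the floor on both arrays. B cell markers summed to 493 and 677 and did not share a direction. MS4A1 had 226 with pDCs and 131 alone, CD79A had 232 and 340.5, and PAX5 had 34.7, below the floor, and 206. The part of these differences in the values of the members was not tested.

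The rest of the pathway was described with 104 other genes in 7 lists, of which 96 had a probe set with 1 symbol and 70 a ratio or bound. Of the 70, 40 were positive and 30 negative, and the median log2 ratio was 0.13. PRKAR1B and ABCC4 were at least 2-fold higher, and GNAL, VIPR2, DUSP1, RGS2 and SIK1 were at least 2-fold lower. These counts of 2 and 5 stand beside 3.16% and 4.51% of all genes.

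Among the receptors, G protein subunits and cyclases upstream of cyclic AMP, 2 genes were past 2-fold, both lower. Of 14 Gs-coupled receptors with a probe set, 7 had a ratio or bound (median -0.25), 0 were higher and 1 was lower by 2-fold. Only 3 of the 7 were above both floors, and the median takes the bounds of the others as values. VIPR2, a receptor for vasoactive intestinal peptide, had 17.4 with pDCs and 282 alone and was at least 2.43-fold lower. This bound rests on 1 probe set of the x_at class, which can bind several transcripts. The 2 other VIPR2 probe sets were below the floor on both arrays. Of 15 adenylyl cyclase and G protein alpha subunit genes, 14 had a ratio or bound (median 0.27), again with 0 higher and 1 lower. That one was GNAL, which encodes the olfactory Gs-type alpha subunit, with 83.2 and 573 (at least 4.94-fold lower). The widely expressed GNAS had 40430 with pDCs and 31030 alone (log2 ratio 0.38), and its 6 other probe sets above both floors ran from -0.19 to 0.74. The same list also holds GNAI1, GNAI2 and GNAI3, whose Gi proteins inhibit adenylyl cyclases, with log2 ratios of 0.84, 0.53 and 0.28. The list median of 0.27 thus covers genes with opposite effects on cyclic AMP. In this list 8 genes were positive and 6 negative. GNAS and the GNAI genes were named after their values were seen.

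Among phosphodiesterases outside the set, none was past 2-fold. Of 17 genes in this list with a probe set, 9 had a ratio or bound, with a median log2 ratio of -0.0032, and 0 were higher or lower by 2-fold. Not all of them degrade cyclic AMP. PDE5A, PDE6A and PDE6B act on cyclic GMP, and PDE4DIP, below the floor on both arrays, encodes an anchoring protein. PDE6D, a prenyl-binding protein despite its name, had 2833 with pDCs and 2452 alone, and PDE1C had 255 and 295. PDE4C had no probe set with 1 symbol.

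PKA subunits and inhibitors outside the set were more often positive than negative, 6 against 2 of 8 with a ratio (median 0.51). PRKAR1B, the regulatory subunit best known from brain, had 401 with pDCs and 132 alone and was 3.03-fold higher. Its other probe set was below the floor on both arrays, so this rests on 1 probe set whose MM.1S-alone signal was close to the floor. Further regulators were named after their values were seen. PRKAR2B, a type II regulatory subunit, had 683 and 353 (log2 ratio 0.95), and the PKA inhibitor gene PKIA had 817 and 451 (log2 ratio 0.86). PRKAR2A, the other type II subunit, had 5287 with pDCs and 7532 alone (log2 ratio -0.51), and its 4 other probe sets above both floors were also negative, from -0.57 to -0.24.

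In the list of cyclic AMP sensors of the EPAC type, PKA anchors and exporters, 13 of 15 genes had a ratio or bound (median 0.34), with 1 higher and 0 lower. Most of the 13 were anchor genes, and no EPAC gene was among them. RAPGEF3 was below the floor on both arrays (12.0 and 34.8), and RAPGEF4 had no probe set with 1 symbol. ABCC4, a membrane pump that exports cyclic AMP, had 383.5 with pDCs and 186 alone (2.06-fold higher). Its 3 other probe sets were each below the floor on 1 array and did not share a direction. The first had 118.1 with pDCs and 49.6 alone, which bounds its log2 ratio at -0.07 or higher. Another had 150.8 and 64.4 (0.28 or higher). The last had the smaller signal with pDCs, at 8.58 and 125.4 (-0.11 or lower). The 2.06-fold difference thus rests on 1 probe set. CREB factors and coactivators had a ratio or bound for 6 of 8 genes (median 0.29), and 0 were past 2-fold. The coactivator gene CREBBP had 1921 and 1884, and CRTC3 had 1081 and 1372. CREB1, named after its values were seen, had the largest ratio of this list, with 1062 and 592 (log2 ratio 0.84). Its 5 other probe sets above both floors ran from -0.05 to 0.60. In this list 4 genes were positive and 2 negative.

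Target genes of CREB, a list whose members also answer to other factors, did not share a direction: 7 were positive and 6 negative of 13 with a ratio or bound (median 0.04), with 0 higher and 3 lower by 2-fold. RGS2, which restrains G protein signalling, had 5395 with pDCs and 13000 alone (2.41-fold lower) on its only probe set. SIK1, a kinase that holds back the CREB coactivators, had 372 and 875 (2.35-fold lower), and its other probe set had a log2 ratio of -0.90. DUSP1, a MAP kinase phosphatase, had 148 and 442 (2.99-fold lower), with -0.74 on another probe set. All measurable probe sets of these 3 genes had the smaller signal with pDCs. The remaining targets with a ratio or bound, named after their values were seen, lay on both sides. MCL1, a survival gene, had 6007 with pDCs and 10870 alone (log2 ratio -0.86), and its 3 other probe sets above both floors ran from -0.54 to -0.17. FOSB was bounded at -0.85 or lower, and JUNB had -0.27. The stress factor gene ATF3 had 3397 and 3070 (log2 ratio 0.15), and its 2 other probe sets above both floors had 0.64 and 1.22. BCL2 had 0.94 on its brightest probe set, but its 3 other probe sets above both floors were negative, from -1.42 to -0.29. CCNA2 had 0.47, PPARGC1A 0.55, NR4A1 0.23 and EGR1 0.04, and NR4A3 was bounded at 0.59 or higher. FOS, NR4A2, PCK1, BDNF and IL6 were below the floor on both arrays.

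**Figure D4:**
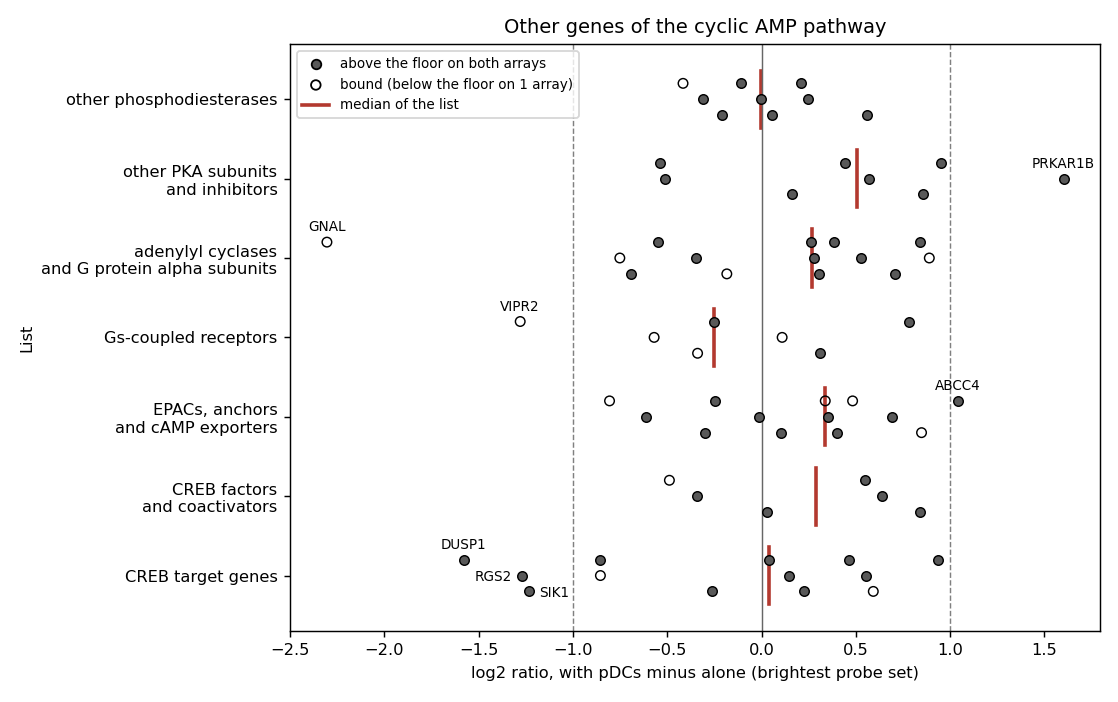
Log2 ratio (with pDCs minus alone, brightest probe set) of 70 other genes of the cyclic AMP pathway in 7 lists; filled points are above the floor on both arrays, open points are bounds, and red bars are list medians. Dashed lines mark 2-fold and genes at or past them are named. List medians run from -0.25 for Gs-coupled receptors to 0.51 for PKA subunits and inhibitors. Medians take bounds as values, and only 3 of the 7 receptors shown were above both floors.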

How the data were processed

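Total RNA was labelled with biotin and hybridised to 1 array per group, per the labels' protocols. Each deposited value is a linear intensity for a probe set, and MAS5 was used according to the submitters' processing notes. The sources used here give no MAS5 version, background step or detection call. Both arrays had the same trimmed mean of 500.1 (2% cut from either end), and such scaling hides any shift shared by most transcripts. Groups were taken from sample titles. Probe sets were named through the platform annotation. Each gene was represented by its brightest probe set (highest mean log2 signal over both arrays), and signals under each array's median were set to it. With 1 array per group no test was made, and the threshold of size was 2-fold. Members and lists were chosen with earlier results of these data known. Named genes were all 9 members, each pathway gene past 2-fold and, in a list with none, the 2 brightest, and the text marks genes outside this rule as chosen on their values. The calculations were tested on simulated data. Alternatives covered scaling, floor, probe sets and threshold. Python 3.11.15, numpy 2.4.6, pandas 2.3.3, statsmodels 0.14.6 and matplotlib 3.10.9 were used.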

Additional observations from a re-analysis of the deposited data

How the results depend on the processing

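The 9 member ratios kept their sign and their side of 2-fold in all 68 recalculations that gave a value. A lower floor or none could not change them, because every brightest probe set was above both floors. For PDE7A and PRKACB the sign depended on the probe sets used. Their brightest probe sets had log2 ratios of 0.19 and 0.15, but the means over their probe sets above both floors were -0.03 and -0.07. PDE4B ranged from -2.14 (mean over all probe sets) to -2.02, PDE3B from 0.57 to 0.91 and CREM from -0.35 to -0.31. The mean over all probe sets was taken on signals before the floor. For PDE4B it therefore includes 215671_at, with 16.5 with pDCs and 151 alone, whose floored ratio is only a bound. The 2 PDE4B probe sets above both floors had a mean of -1.61, which lies outside that range. With the mean over all probe sets CREM, PDE4A and PDE4D fell below the floor and had no value, so the CREM range leaves out its lowest probe set, and PDE4D had none with the floor at the 70th percentile either. Median centring, quantile normalization and loess left all counts past 2-fold as reported. Of the 25 member probe sets with a ratio or bound, 1 was higher and 3 were lower as reported. With the floor at the 30th percentile 2 of 35 were higher and 4 lower. At the 70th percentile 0 of 15 were higher and 1 was lower, and with no floor 4 of 40 were higher and 5 lower. Without probe sets of the x_at, s_at and a_at classes, which can bind several transcripts, 0 of 13 were higher and 1 was lower. The share of all probe sets was not calculated under the alternative settings, so these counts cannot be set beside it. At 1.5-fold 2 probe sets and 1 gene (PDE3B) were higher, and at 3-fold 0 probe sets were higher and 1 was lower. Of the 70 other pathway genes with a ratio or bound, 2 were higher and 5 lower as reported. These counts became 10 and 14 of 88 with the floor at the 30th percentile, 0 and 3 of 43 at the 70th, and 13 and 20 of 96 with no floor. They became 14 and 11 of 70 at 1.5-fold, and 1 and 1 of 70 at 3-fold. The shares of all genes higher and lower moved too, from 3.16% and 4.51% to 8.57% and 10.9% at the 30th percentile, 1.90% and 2.03% at the 70th, 12% and 14% with no floor, 11.5% and 15.3% at 1.5-fold, and 0.444% and 0.659% at 3-fold. With the mean over probe sets 3 were lower, and without the x_at, s_at and a_at classes 2 were. Fewer genes and probe sets had a ratio with a higher floor, with the mean over probe sets, and without those classes. Signals near or below the floor limit what is measurable for PDE4A, PDE4D, the CREM probe set 209967_s_at and the PDE8A probe set 1552931_a_at. No paired analysis was possible because each group has 1 array.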
